A study of Mus musculus with 16 samples.

Results

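The replication-dependent histone genes encode the H1, H2A, H2B, H3 and H4 proteins that package newly copied DNA. They were taken as every protein-coding gene whose symbol marks it as a numbered member of the H2A, H2B, H3 or H4 clusters, together with the linker histones H1f1 to H1f5. The rule found 66 genes among the 57010 genes (21848 protein-coding) listed in both count tables. The group holds 5 H1, 18 H2A, 18 H2B, 12 H3 and 13 H4 genes. On the files' coordinates, which the submitters' processing notes place on GRCm39, 53 of them lie on chromosome 13, 10 on chromosome 3, 2 on chromosome 11 and 1 on chromosome 6. The rule used the symbols only and no measured value, though earlier results of these data were known when it was set.

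Histone mRNAs of this group are made mainly in S phase and most of them end, not in a poly(A) tail, but in a short hairpin that is bound by SLBP, the stem-loop binding protein. NPAT and CASP8AP2 (FLASH) work at the histone locus body, where the genes are transcribed and the 3′ ends are cut. Some of the genes also give polyadenylated transcripts that run past the hairpin, mostly described in cells that have stopped dividing or are differentiating, and a library built on poly(A) selection reads those forms. The values here therefore do not measure the total histone mRNA of the cells, and sequence shared between copies of the genes also bears on them, as described further on.

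The RNA came from granulosa cells, the somatic cells that surround the oocyte, of female ICR mice bought at 6 weeks of age. EM-mGC libraries (n = 5) are fresh cells of mice in which donor endometrium had been stitched to the bowel side of the mesentery as a model of endometriosis. Con-mGC libraries (n = 5) are fresh cells of sham-operated mice with no implant. PBS libraries (n = 3) are cells of EM mice that spent, by the sample records, 24 h in DMEM/F12 medium containing 5% FBS. EET libraries (n = 3) are cells of the same kind given 100 nM 14,15-EET, an epoxide of arachidonic acid, for 24 h. A figure legend of the paper has all these cells in that medium for 24 h first. EET, or as much PBS for the PBS group, then followed for 24 h more. The sources thus differ on the total time in culture. All mice went through ovulation induction. The methods give estradiol with a later washout for the recipients and name PMSG or hCG, without saying which preceded these libraries. Cells of 6 EM mice were split between PBS and EET, which the series describes as 3 pairs, so those groups share their source cells. The implant is an allograft in mice that keep their ovaries.

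Total counts ran from 14229123 to 15999234 in the fresh libraries and from 21384686 to 29482826 in the cultured ones. The 66 genes took 1117 to 2161 of these counts in a fresh library and 3055 to 3826 in a cultured one. Granulosa markers were present in every group, with a summed level of 6770 to 21300 CPM, counts scaled to the TMM-adjusted library total, in fresh cells and 5330 to 6540 CPM in cultured cells, and none of the 10 was at 0 in any group. One fresh library stood apart. Con-mGC-1 had reads on 28 of the 66 genes, against 39 to 50 in the other Con-mGC libraries, and 3.59% of its detected genes held a single read against 9.71% to 12.8% elsewhere. EM-mGC-3 had 21.8% of its counts on mitochondrial genes, against 6.76% to 11.1% in the other fresh libraries. Both libraries were kept, and the number of histone genes called at an adjusted p under 0.05 was also taken without each of them.

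The hairpin was found in the annotated transcripts of 45 of the 66 genes (GENCODE M21, GRCm38, matched by gene ID for all 66). It has 8 forms in these genes. The one below stands first because 26 genes of the H1, H2A, H2B and H3 classes carry it, among them H1f2, where it lies at chr13:23739512-23739527 on the plus strand, 24 bases after the stop codon. The form in H4c8 (chr13:23531458-23531473, plus strand) is shared by 7 H4 genes, and the form in H4c9 (chr13:22040966-22040981, minus strand) by 2. Capitals mark the arms that pair in the hairpin.
H1f2 stem-loop: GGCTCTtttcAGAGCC
H4c8 stem-loop: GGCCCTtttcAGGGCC
H4c9 stem-loop: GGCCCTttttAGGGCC
The search in these genes was wider than these exact letters, for any pairing arms of this length that start with GG, after the stop codon. Anywhere in their transcripts, 1748 of 21835 other protein-coding genes (8.01%) held a hairpin of that general shape. The exact sequences, which were taken from the histone genes themselves, occurred in 3 of the 21835 (0.0137%). Of the 21 genes without a complete hairpin, 17 have annotated transcripts that stop within 60 bases of the stop codon, so the annotation can end before or inside it. The H1f1 transcript ends in the first form short of its last base, and that of H3c13 ends soon after the first arm. Neither was counted.

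The ends of the annotated transcripts are shown next, since the 4 genes with most reads all have annotation far past the stop codon. The last 30 bases are at chr13:23740338-23740367 (plus) for H1f2, chr3:96223709-96223738 (plus) for H2bc21, chr13:22040636-22040665 (minus) for H4c9 and chr13:23692879-23692908 (plus) for H2bc4. Capitals mark a polyadenylation hexamer, AATAAA or ATTAAA.
H1f2 end: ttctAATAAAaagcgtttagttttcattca
H2bc21 end: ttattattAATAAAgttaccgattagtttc
H4c9 end: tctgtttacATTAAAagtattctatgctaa
H2bc4 end: tccatgactgactgaggagccttgggcaag
H1f2 thus has both signals, the hairpin and, 840 bases beyond it, an end with AATAAA. H4c9 has the same arrangement with 330 bases between hairpin and end. The annotated transcripts of H2bc21 and H2bc4 hold no hairpin, and that of H2bc4 is spliced from 2 exons and shows neither hexamer in its last 50 bases.

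Reads were concentrated on few of the 66 genes. Over the 16 libraries they summed to 38015, of which H1f2 had 18866, H2bc4 6756, H2bc21 3411 and H4c9 2398, while the gene ranked next had 696. These 4 genes held between 79.9% and 88.3% of the group's reads in every library. A further 19 genes had at least 100 reads, 31 had 10 to 99, 6 had 1 to 9 and 6 had no read at all. For those 6, 3 reads over the 16 libraries would be 0.0101 CPM, a limit that covers counting error only.

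Levels per length gave the same leading genes in another order. Per kilobase of annotated exon (GENCODE M21), the mean over the 16 libraries was 40.3 CPM per kb for H1f2, 18.0 for H2bc4, 10.2 for H4c9 and 4.70 for H2bc21, followed by H4c8 at 3.63 CPM per kb. H1f2 encodes a linker histone, which binds the DNA between nucleosomes, whereas H2bc4 and H2bc21 encode the core histone H2B and H4c9 and H4c8 the core histone H4. By class, H1 genes held 51.8% of the group's reads, H2B 32.6%, H4 9.99%, H3 3.04% and H2A 2.53%.

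**Figure D1:**
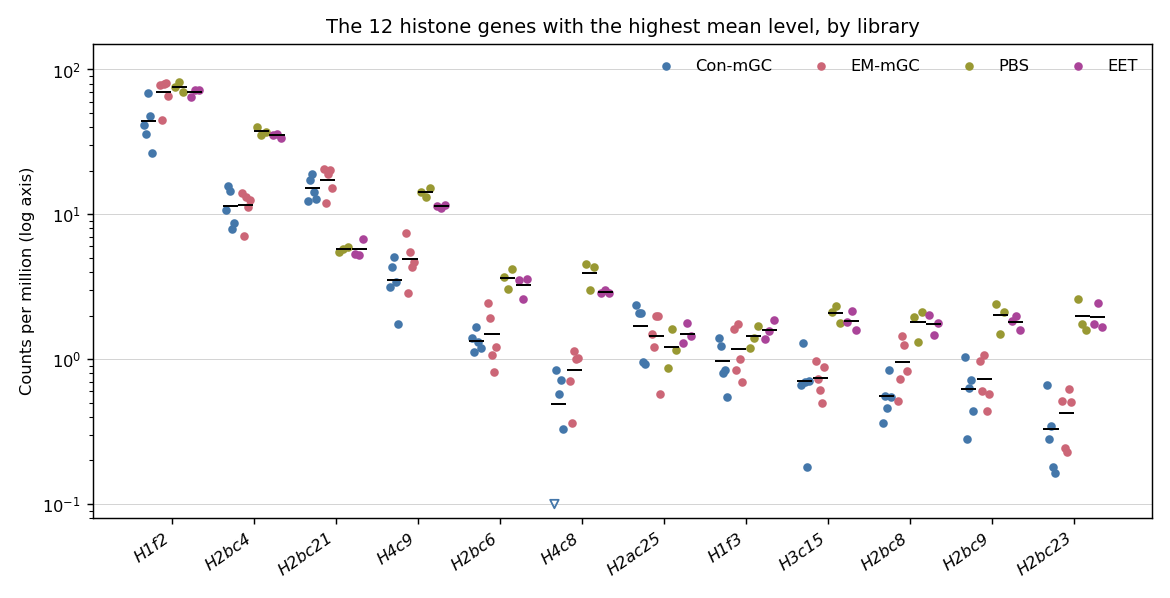
CPM (log axis) of the 12 replication-dependent histone genes with the highest mean level, 1 point for each of the 16 libraries, coloured by group, with a black line at each group mean. A downward triangle at the lower edge marks a library with no read (H4c8 in Con-mGC-1). H1f2 lies above every other gene in every library, H2bc21 is lower in the cultured groups, and H2bc4, H4c9 and H4c8 are higher there.

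The annotated length after the stop codon set apart the genes with many reads, a grouping chosen after the values were seen. The 22 genes annotated 300 bases or more past the stop codon held 92.3% of the reads, and the 39 genes whose annotation ends within 120 bases of it held 6.07%. Per kilobase the highest of the 22 was at 40.3 CPM and the highest of the 39 at 3.63 CPM, but the medians were 0.398 and 0.223 CPM per kb, so most genes with a long annotated end were low too. A hexamer near the end was present in 16 of the 66 genes, which held 71.6% of the reads, and in 50.2% of the transcripts of other protein-coding genes.

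Near-identical sequence limits what a count can say of a single gene. Of every 150-base window in a gene's transcripts, the share found in no other annotated gene was 100% for 12 of the 66 genes and under 50% for 24. The 5 genes with no such window, H2ac18, H2ac19, H3c13, H3c14 and H2bc18, all had 0 reads, and the only other gene at 0, H4c2, had 36.7%. These 6 genes were singled out after their values were seen, and how reads with several matches were counted is not given in the sources used here. H1f2 and H2bc21 were at 100%, H4c9 at 97.9%, H2bc6 at 90.6% and H2bc4 at 82.6%. H2bc23 was at 7.64%, H3c10 at 9.54%, H3c15 at 40.6%, H4c12 at 46.6% and H3c11 at 47.3%, so the counts of these 5 in particular may hold or lack reads of other copies. In addition, 24 of the 66 genes overlap another listed gene, 7 of them on the same strand.

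**Figure D2:**
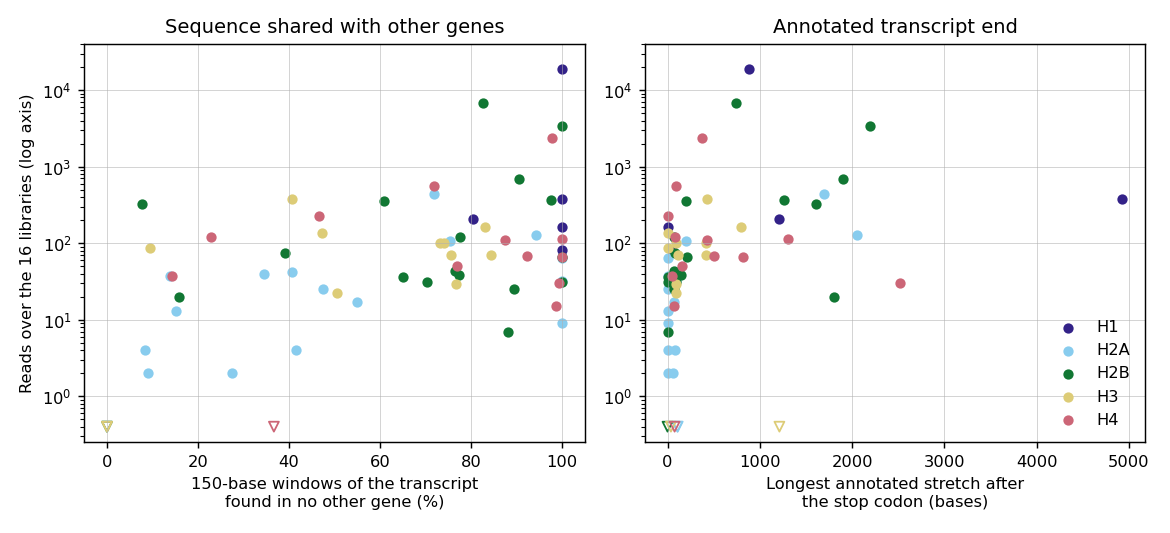
Reads over the 16 libraries (log axis) for each of the 66 genes, coloured by class, against the share of 150-base transcript windows found in no other gene (left) and against the longest annotated stretch after the stop codon (right). Open triangles at the lower edge are the 6 genes with no read, 5 of which sit at 0% on the left axis.

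The promoters of the classes differed in their motifs. RefSeq promoter sequences on GRCm38, from 250 bases before to 50 after the start, matched 57 of the 66 genes, and motifs were searched on both strands. The octamer ATTTGCAT occurred in 7 of 14 H2B and 6 of 17 H2A promoters, in none of the H1, H3 and H4 promoters, and in 1.97% of all 27025 promoters. Some H2A and H2B genes, such as H2ac12 and H2bc12, lie side by side and are read in opposite directions. Their windows can overlap, so the same site can count for both genes, and the H2A and H2B counts are not separate. The letters TATAAA occurred in 34 of the 57 (59.6%) against 15.7% of all promoters. The letters CCAAT occurred in 49 of the 57 against 41.1% of all, and of the 11 H4 promoters 3 held them. These are matches of letters in a window and carry no measure of binding.

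The first comparison asks whether fresh granulosa cells of EM mice differ from those of sham mice. H1f2 was at 41.1, 36.1, 68.7, 47.9 and 26.6 CPM in the Con-mGC libraries and at 77.6, 44.9, 80.0, 80.4 and 65.3 CPM in the EM-mGC libraries. The means were 44.1 ± 15.8 and 69.6 ± 15.1 CPM (SD, n = 5 each), and the groups overlapped through Con-mGC-3 and EM-mGC-2. The log2 fold change was 0.65 with an SE of 0.23, which did not pass (edgeR adjusted p = 0.465, unadjusted p = 0.0151). Against the reads of the 66 genes alone, which no library scaling enters, H1f2 took 40.2% to 55.8% in Con-mGC and 55.0% to 61.2% in EM-mGC, so the ranges met at their edges.

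Of the 66 genes, 14 passed the filter on low counts in this comparison and none was called at an adjusted p under 0.05, where 0% of the 17229 genes tested were called. At an unadjusted p under 0.05 there were 2 of 14, H1f2 and H1f5, where 9.44% of all genes tested were. Groups did not overlap for 0 of the 14, where 1.74% of all genes tested had groups that did not overlap. DESeq2 called none of the 14 either and gave no adjusted p for 7 of them, while it called 114 genes in all (0.718%). The median log2 fold change was 0.25 over the 14 genes tested and -0.01 over all genes tested, and the 52 genes that did not pass the filter are outside that median.

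H1f5, another linker histone, was at 0.515 ± 0.229 CPM in Con-mGC and 1.09 ± 0.487 CPM in EM-mGC (log2 fold change 1.05, edgeR adjusted p = 0.498). H2bc8 was at 0.555 ± 0.178 and 0.954 ± 0.387 CPM (edgeR adjusted p = 0.540). H4c9 was at 3.54 ± 1.26 and 4.95 ± 1.68 CPM (edgeR adjusted p = 0.631), and H1f4 at 0.492 ± 0.441 and 0.917 ± 0.407 CPM (edgeR adjusted p = 0.670). These are the genes of the group with the smallest unadjusted p after H1f2, and none of them passed. H2bc4 had a log2 fold change of 0.01 with an approximate 95% interval from -0.44 to 0.47, and H2bc21 one of 0.19 with an interval from -0.16 to 0.54, so a change of up to about those bounds could not be told from none.

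The summed level of the 66 genes was 82.9, 89.8, 123, 86.2 and 61.1 CPM in the Con-mGC libraries and 139, 81.7, 141, 131 and 113 CPM in the EM-mGC libraries. The highest Con-mGC library, Con-mGC-3, lay above the lowest 2 EM-mGC libraries. Mki67, a marker of cycling cells, was at 211, 288, 44.9, 74.2 and 159 CPM in the same order of EM-mGC libraries and between 193 and 229 CPM in the Con-mGC libraries. EM-mGC-2 had the lowest histone sum of its group with the highest Mki67, whereas EM-mGC-1 had a histone sum near those of EM-mGC-3 and EM-mGC-4 with a higher Mki67 than either. Leukocyte markers (8 genes) summed to 179 to 358 CPM in Con-mGC and 269 to 729 CPM in EM-mGC, and neutrophil markers (6 genes) to 5.85 to 52.0 and 36.8 to 161 CPM, with no marker of either list at 0 in a group. The part of cell cycle state and of these cells in the histone levels was not tested.

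The genes that act with this group were not called between EM-mGC and Con-mGC. None of the 22 genes of histone mRNA 3′ end formation and turnover, the 20 histone chaperones, the 40 S phase genes, the 20 G2 and mitosis genes, the 19 tested genes of cell cycle exit and the 11 histone genes outside the group passed. All 20 G2 and mitosis genes had log2 fold changes below 0, with a median of -0.21 beside -0.01 over all genes tested and none at an unadjusted p under 0.05, and of the 14 histone genes tested 13 had one above 0. Slbp was at 75.8 CPM in Con-mGC and 71.7 CPM in EM-mGC (log2 fold change -0.09, edgeR adjusted p = 0.896). Npat (-0.11) and Casp8ap2 (-0.04) had log2 fold changes as close to 0. Cdkn1a, which encodes the cell cycle inhibitor p21, had a log2 fold change of 0.92 and an edgeR adjusted p of 0.437, and H2az1, a histone variant not tied to S phase, one of 0.39 with an adjusted p of 0.462.

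The second comparison asks what 14,15-EET did to cultured EM cells. H4c9 was at 14.2, 13.2 and 15.1 CPM in the PBS libraries and at 11.5, 11.0 and 11.6 CPM in the EET libraries. Every EET library was below every PBS library, but the log2 fold change of -0.31 (SE 0.09) did not pass (edgeR adjusted p = 0.146, unadjusted p = 0.00456). The other H4 gene with substantial reads, H4c8, was at 4.53, 3.03 and 4.33 CPM in PBS and 2.85, 2.99 and 2.87 CPM in EET (log2 fold change -0.43, edgeR adjusted p = 0.352), again with no overlap. The summed H4 level was 21.4 ± 1.76 CPM in PBS and 17.4 ± 0.413 CPM in EET (SD, n = 3 each). That sum is made up largely of H4c9 and H4c8 and is no separate result. Of the other H4 genes tested, H4c12 (0.30) and H4c14 (0.16) had log2 fold changes above 0 and H4c18 (-0.16) below.

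A pair of H3 genes had the larger fold changes at very low levels. H3c10 was at 0.595 ± 0.163 CPM in PBS and 0.246 ± 0.0542 CPM in EET (log2 fold change -1.24, edgeR adjusted p = 0.223), from 10 to 14 reads a library against 5 to 7. It passed the filter through the PBS libraries, where it is high. H3c4 was at 1.06 ± 0.0230 and 0.580 ± 0.153 CPM (log2 fold change -0.86, edgeR adjusted p = 0.256). H3c11 lay the other way, at 0.620 ± 0.128 and 0.919 ± 0.144 CPM (log2 fold change 0.56, edgeR adjusted p = 0.489), and was the 1 gene of the 6 H3 genes tested with a log2 fold change above 0. H3c6 (-0.34), H3c8 (-0.19) and H3c15 (-0.16) lay below 0 without passing, and H3c10 and H3c11 share much of their sequence with other genes.

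Of the 66 genes, 24 passed the filter here and none was called, where 1.22% of the 15050 genes tested were called. At an unadjusted p under 0.05 there were 4 of 24, where 12.4% of all genes tested were, and DESeq2 called none (no adjusted p for 4 of them) where it called 2.28% of all genes. Groups did not overlap for 5 of the 24, H4c9, H3c10, H3c4, H4c8 and H3c11, where 17.3% of all genes tested had groups that did not overlap, so this share is near the background. The median log2 fold change was -0.05 over the 24 and 0.00 over all genes tested.

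Of the 4 genes with most reads, H4c9 is described above and the others had smaller fold changes. H1f2 was at 75.4, 82.6 and 69.8 CPM in PBS and 64.1, 72.5 and 72.1 CPM in EET, with overlapping groups, and its log2 fold change of -0.12 had an approximate 95% interval from -0.27 to 0.02. H2bc4 had -0.09 (interval -0.22 to 0.05) and H2bc21 0.00 (interval -0.27 to 0.27). The pathway lists held no called gene in this comparison either. Slbp (log2 fold change 0.14, edgeR adjusted p = 0.551), Cdkn1a (-0.03, adjusted p = 0.931) and Mki67 (-0.01, adjusted p = 0.960) did not pass.

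**Figure D3:**
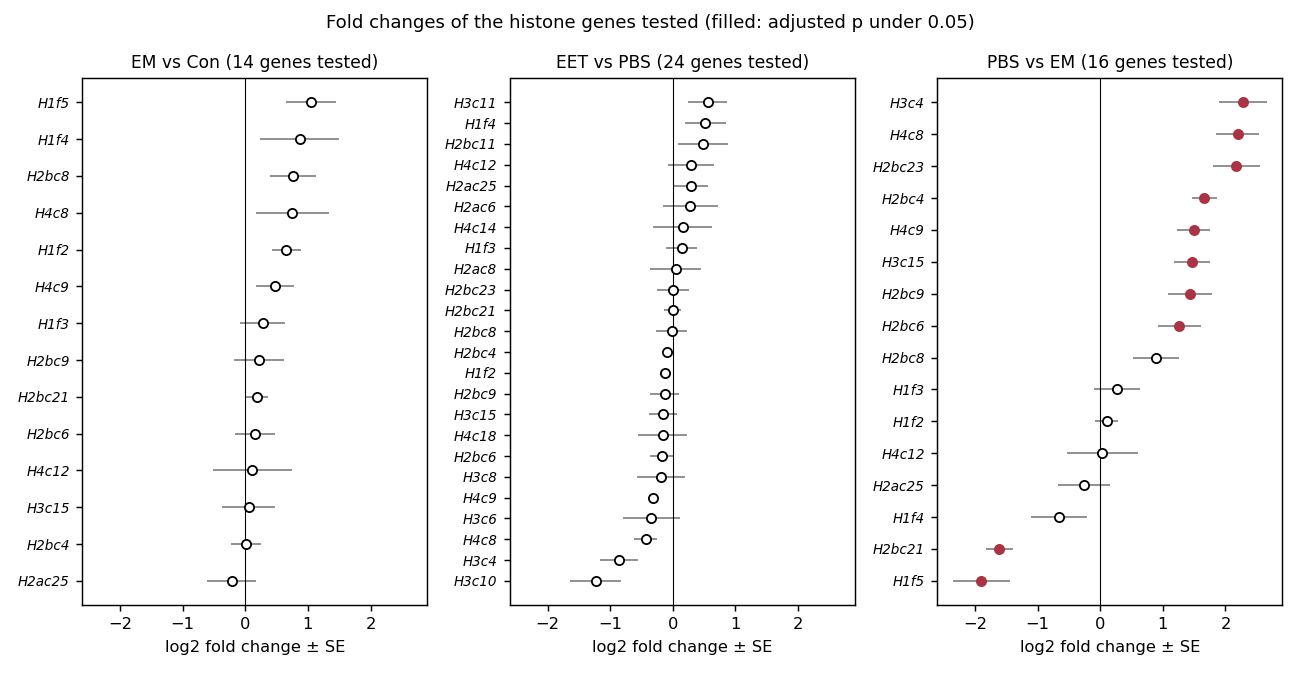
Log2 fold change with its standard error for the replication-dependent histone genes that passed the filter, in EM-mGC against Con-mGC (14 genes), EET against PBS (24 genes) and PBS against EM-mGC (16 genes). Filled points have an adjusted p under 0.05, and they occur in the third panel alone, 8 above 0 and 2 below.

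The third comparison sets the cultured PBS cells against the fresh EM-mGC cells. Both come from EM mice, but culture, the experiment, the animals and the depth change together and cannot be told apart. Of the 66 genes, 16 passed the filter and 10 were called, 8 higher and 2 lower in PBS. Of the 17301 genes tested 69.0% were called (31.1% higher and 37.9% lower), so the number of histone genes called is close to the background. DESeq2 called 10 as well, and 70.4% of all genes. The median log2 fold change was 1.08 over the 16 genes and -0.11 over all genes tested, and the fold changes below carry that shift of all genes. Some of the 16 passed the filter through the group where they are high. In EM-mGC and PBS libraries H3c4 had 2 to 5 and 19 to 26 reads, and H2bc23 3 to 10 and 38 to 48. H1f5 had 12 to 25 and 4 to 9. Such genes enter the median and the 8 and 2 called, so neither measures the direction of the whole group.

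Among the H2B genes, H2bc4 and H2bc21 went in opposite directions. H2bc4 was at 14.1, 7.08, 13.2, 11.2 and 12.6 CPM in the EM-mGC libraries and at 40.1, 35.1 and 37.2 CPM in the PBS libraries, a 3.17-fold rise (log2 fold change 1.66, SE 0.20, edgeR adjusted p = 5.6e-05). H2bc21 was at 20.4, 12.04, 18.9, 20.2 and 15.2 CPM in EM-mGC and at 5.51, 5.79 and 5.99 CPM in PBS, a 3.06-fold fall (log2 fold change -1.61, SE 0.21, edgeR adjusted p = 9.3e-05). Neither gene's groups overlapped, which held for 10 of the 16 histone genes and 66.4% of all genes tested.

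The ratio of H2bc4 reads to H2bc21 reads within a library needs no scaling factor, and was added after the values were seen. It was between 0.554 and 0.833 in EM-mGC, with a mean of 0.672 ± 0.109 (SD, n = 5), and between 0.550 and 0.903 in Con-mGC, with a mean of 0.754 ± 0.145 (n = 5). In the cultured cells it was 7.29, 6.05 and 6.21 in PBS and 6.67, 6.87 and 5.04 in EET. H2bc4 had fewer reads than H2bc21 in every fresh library and more in every cultured one. Per kilobase of exon, H2bc4 stood at 10.1 CPM per kb in EM-mGC and 32.4 in PBS, and H2bc21 at 6.62 and 2.20 CPM per kb.

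**Figure D4:**
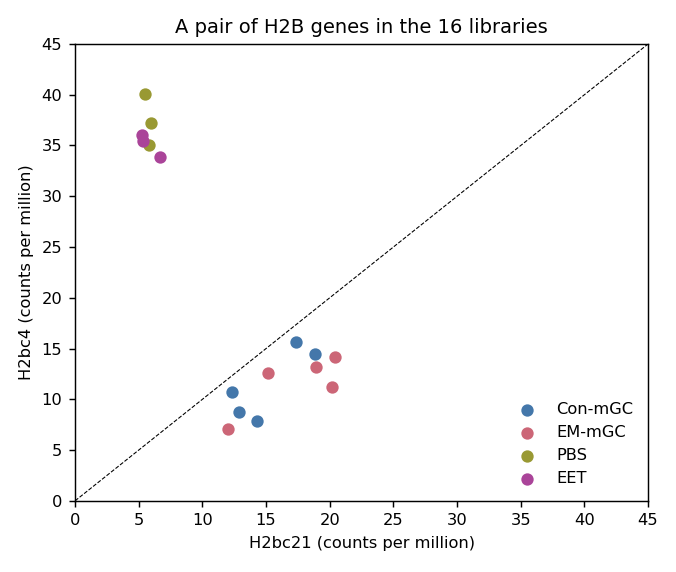
CPM of H2bc4 against CPM of H2bc21, 1 point for each of the 16 libraries, coloured by group, with a dashed line where the levels are equal. The 10 fresh libraries lie below the line and the 6 cultured libraries far above it.

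The other H2B genes tested were at lower levels. H2bc23 rose from 0.424 ± 0.178 to 1.98 ± 0.555 CPM (log2 fold change 2.17, edgeR adjusted p = 0.00057), H2bc9 from 0.730 ± 0.273 to 2.004 ± 0.465 CPM (1.43, adjusted p = 0.00422) and H2bc6 from 1.495 ± 0.678 to 3.66 ± 0.566 CPM (1.26, adjusted p = 0.0078). H2bc23 shares most of its sequence with other genes, as given above, and H2bc6 overlaps H1f4, another gene of the group. H2bc8 was at 0.954 ± 0.387 and 1.80 ± 0.426 CPM and did not pass (0.89, edgeR adjusted p = 0.0513). It passed when EM-mGC-3 (log2 fold change 1.08, adjusted p = 0.0198), EM-mGC-4 (1.01, 0.0437) or PBS-2 (1.08, 0.0484) was left out.

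The H4 and H3 genes that were called were all higher in PBS, among them H3c4, which passed the filter through its PBS reads. H4c9 was at 7.42, 2.85, 5.51, 4.31 and 4.69 CPM in EM-mGC and at 14.2, 13.2 and 15.1 CPM in PBS (log2 fold change 1.49, SE 0.26, edgeR adjusted p = 0.000603). H4c8 rose from 0.847 ± 0.314 to 3.96 ± 0.813 CPM (2.20, edgeR adjusted p = 0.000288), which is 1.80 against 8.42 CPM per kb. H3c4 rose from 0.213 ± 0.0949 to 1.06 ± 0.0230 CPM (edgeR adjusted p = 0.000487) and H3c15 from 0.739 ± 0.192 to 2.08 ± 0.272 CPM (edgeR adjusted p = 0.00129). The third H4 gene tested, H4c12, was at 0.725 ± 0.614 and 0.762 ± 0.286 CPM and did not pass (edgeR adjusted p = 0.964).

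Of the 4 linker histones tested, H1f5 was called and the others were not. H1f2, the highest of the 66, was at 69.6 ± 15.1 CPM in EM-mGC and 75.9 ± 6.39 CPM in PBS (log2 fold change 0.10, approximate 95% interval -0.26 to 0.47, edgeR adjusted p = 0.646). H1f5 fell from 1.09 ± 0.487 to 0.285 ± 0.0804 CPM (log2 fold change -1.90, edgeR adjusted p = 0.00395). H1f3 (0.27, edgeR adjusted p = 0.527) and H1f4 (-0.66, edgeR adjusted p = 0.208) did not pass. The only H2A gene tested, H2ac25, was at 1.45 ± 0.597 and 1.22 ± 0.379 CPM (edgeR adjusted p = 0.595).

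The make-up of the histone reads differed accordingly. H1f2 took 55.0% to 61.2% of the group's reads in EM-mGC and 43.9% to 50.1% in PBS. H2bc4 took 8.52% to 11.2% and 21.3% to 24.1%, H2bc21 13.4% to 15.4% and 3.31% to 3.76%, and H4c9 3.28% to 5.32% and 7.99% to 9.51%. In the EET libraries H1f2 took 44.3% to 47.4%, H2bc4 22.2% to 24.5% and H2bc21 3.36% to 4.41%, each overlapping PBS, and H4c9 7.05% to 7.94%, just below its lowest PBS share. The summed level of the 62 genes other than these 4 was 17.8 ± 3.89 CPM in EM-mGC and 30.2 ± 1.67 CPM in PBS.

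**Figure D5:**
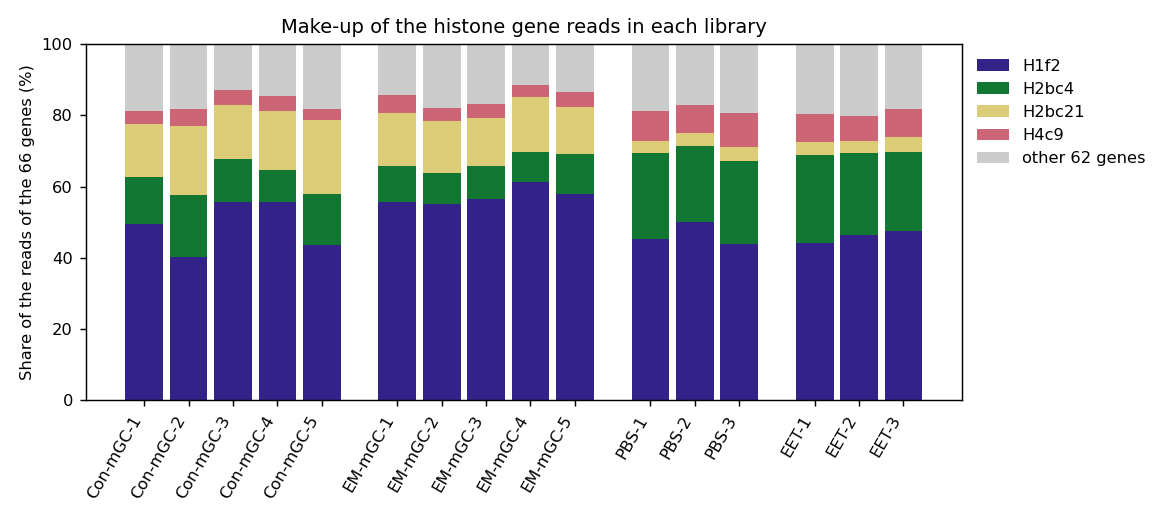
Share (%) of the reads of the 66 genes taken by H1f2, H2bc4, H2bc21, H4c9 and the other 62 genes together, 1 bar for each of the 16 libraries. H2bc4 takes 8.52% to 17.4% in the 10 fresh libraries and 21.3% to 24.5% in the 6 cultured ones, and H2bc21 13.4% to 21% and 3.31% to 4.41%.

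Markers of other cells moved with this comparison, and so did those of granulosa cells. Granulosa markers (10 genes) were at 6770 to 21300 CPM in EM-mGC and 5940 to 6540 CPM in PBS. Of these 10 genes 9 were called lower and 0 higher, with a median log2 fold change of -2.2, where 37.9% of all genes tested were called lower. Summed red blood cell markers (6 genes) were at 2440 to 16100 CPM in EM-mGC and 0.208 to 0.327 CPM in PBS, with Hba-a2, Hbb-bs and Hbb-bt at 0 in PBS. Leukocyte markers (8 genes) were at 269 to 729 and 16.8 to 19.3 CPM, endothelial markers (6 genes) at 79.9 to 145 and 2.91 to 3.90 CPM, and oocyte markers (9 genes) at 106 to 828 and 1.14 to 1.36 CPM, with Zp1, Oosp1, Nlrp5, Figla and H1f8 at 0 in PBS. Theca and stroma markers (7 genes) were at 866 to 1500 and 240 to 326 CPM, surface epithelium markers (5 genes) at 48.0 to 135 and 2.83 to 4.26 CPM, and neutrophil markers (6 genes) at 36.8 to 161 and 0 to 0.0439 CPM. Smooth muscle markers (5 genes) went the other way, at 98.3 to 252 and 570 to 767 CPM. Their part in the histone values was not tested, and in bulk RNA fewer cells of a type and less RNA per cell cannot be told apart.

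A pair of low genes with reads in fresh cells only was picked out after its values were seen. H2ac1 and H2bc1, which lie side by side on chromosome 13 (24117756 to 24118834, GRCm39), encode the germ-line forms TH2A and TH2B. H2ac1 had 4 to 22 reads in each Con-mGC library, 1 to 7 in each EM-mGC library and none in any PBS or EET library, a loss that markers of several cell types listed above showed as well. Against a floor of 3 reads over the PBS libraries together, its pooled EM-mGC level of 0.260 CPM was at least 5.65-fold higher. H2bc1 had 3 reads over the Con-mGC and 4 over the EM-mGC libraries, with none in several fresh libraries and none in cultured cells, too few for a fold.

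Among the genes that act on histone mRNA, Slbp fell in PBS against EM-mGC. It was at 52.7, 95.6, 95.5, 48.4 and 66.4 CPM in EM-mGC and 28.0, 30.7 and 25.8 CPM in PBS, with no overlap (log2 fold change -1.37, SE 0.25, edgeR adjusted p = 0.000705). Of the 22 genes of 3′ end formation and turnover, 6 rose and 2 fell, with Cpsf2 (0.93), a subunit of the cleavage complex, and Ncbp1 (0.70), a subunit of the nuclear cap-binding complex, the next in size. The list thus had 36.4% called, below the 69.0% of all genes tested. Npat (0.24, edgeR adjusted p = 0.136) and Casp8ap2 (-0.33, edgeR adjusted p = 0.147) did not pass. The list's median log2 fold change was 0.10 beside -0.11 over all genes tested.

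The S phase list was mixed, with 8 of 40 higher and 6 lower and a median of -0.04. Called genes made up 35% of this list, 35% of the G2 and mitosis list and 57.9% of the cell cycle exit list. All 3 shares lie below the 69.0% of all genes tested. Rrm2 (1.54) and Rrm1 (1.33), the subunits of ribonucleotide reductase, and E2f1 (1.09), a transcription factor of S phase entry, rose most, while Pcna, the replication clamp, fell by 0.41 (edgeR adjusted p = 0.0308) and Ccne2 fell by 0.76 (edgeR adjusted p = 0.0447) on the log2 scale. Of the 20 G2 and mitosis genes 3 rose and 4 fell, led by Ttk (-1.32), Nusap1 (-1.12) and Cenpf (-1.11), and Mki67 (-0.87, edgeR adjusted p = 0.143) and Top2a (-0.06, edgeR adjusted p = 0.872) did not pass. Of the 19 tested genes of cell cycle exit 6 rose and 5 fell. Cdkn1a rose from 33.2 CPM in EM-mGC to 405 CPM in PBS (log2 fold change 3.58, edgeR adjusted p = 4e-06), Ccng1 rose by 2.03 and E2f5 fell by 1.66 on the log2 scale.

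Histone genes outside the group changed in both directions. Of the 11, 4 rose and 3 fell, with a median log2 fold change of -0.12. The share called was 63.6% here and 60% among the histone chaperones below, where 69.0% of all genes tested were called. H2aj (1.23), H2ax (1.15), which encodes the variant phosphorylated at DNA breaks, and Macroh2a2 (1.09) rose. H1f0, the linker histone of resting cells, fell by 0.90 on the log2 scale (138 to 75.2 CPM, edgeR adjusted p = 7.4e-05) and H3f3b, which encodes the H3.3 variant, by 0.54 (695 to 486 CPM, edgeR adjusted p = 0.0202). H3f3a (-0.12) and H2az1 (0.29) did not pass. Of the 20 histone chaperones 6 rose and 6 fell, with Hjurp (-1.19), the chaperone of CENP-A, Atrx (-1.09) and Nasp (-0.996), a carrier of H3 and H4, changed most.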

How the data were processed

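Libraries were poly(A)-selected (Illumina Stranded mRNA, paired reads of 150 bases). What the authors deposited are raw counts, 1 value a gene and library. The submitters' processing notes name fastp, HISAT2, StringTie and GRCm39, and the deposited counts are labelled featureCounts. How strand and reads with several matches were handled is not given in the sources used here. All columns mapped to a sample. Each comparison was fitted across all genes kept by filterByExpr with edgeR 4.0.16 (R 4.3.3), TMM scaling and the quasi-likelihood test, two-sided, with Benjamini-Hochberg adjustment and calls at 0.05. DESeq2 1.42.0, which the study names, was an alternative. CPM uses TMM factors over all 16 libraries. Fits were tested on simulated counts in which only genes with higher counts were changed, so genes with few reads are not covered by that test. Intervals are the estimate ± a normal multiple of its SE and cover the spread between libraries. Fresh libraries are separate mice. PBS and EET share their mice, and p-values there measure the spread between cultures.

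Members and lists were chosen with earlier results of these data known. Genes named are the 12 of highest mean CPM, those called in a comparison (at most 15) or, with none called, the 5 of smallest unadjusted p, a short set of cell cycle and histone genes, and the 3 largest called changes in a list. The other tested H1, H3 and H4 genes are named in places to complete a class, and a few genes serve as sequence examples. Further exceptions are stated as seen after the values. Transcript sequences come from GENCODE M21 and promoters from RefSeq, both GRCm38, matched by gene ID or symbol.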

Additional observations from a re-analysis of the deposited data

Results flagged for a closer look

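Of 46 sets of 5 fresh libraries checked for a library far from the rest by Dixon's test, 1 was marked, where chance marks about 1 in 20. H3c11, a gene for the core histone H3, was at 0.612 CPM in EM-mGC-3 (8 reads) and between 0.121 and 0.258 CPM in the other EM-mGC libraries. The level rests on few reads, and EM-mGC-3 is also the library with 21.8% mitochondrial counts. What part that has was not tested.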

How the results depend on the processing

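The number of histone genes called was 0 in EM-mGC against Con-mGC and in EET against PBS under DESeq2, RLE scaling, no filter, a minimum of 10 counts in every library, protein-coding genes only, the replicate block and each library left out. At an unadjusted p under 0.05, a rule added after seeing the data, it was 2 and 4. In PBS against EM-mGC it was 10 of 16, where 69.0% of all genes tested were called, and between 10 and 11 with a library left out. It was 12 of 19 with all 16 libraries in 1 fit and 15 of 60 with no filter. With at least 10 counts in every library, where fewer genes are tested, it was 4 of 6. Shares over all genes are not given for these other fits, so these counts show nothing particular to the histone genes. Under that minimum of 10 counts H1f2 had a log2 fold change of -0.055 against 0.10. H2bc8 also passed with all 16 libraries in 1 fit (log2 fold change 0.92, edgeR adjusted p = 0.022).

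The summed level of the 66 genes was 163.5 CPM in PBS and 151.0 CPM in EET with TMM, 142.1 and 132.0 CPM on total counts without TMM, and 144.0 and 134.0 CPM with mitochondrial genes out of the totals. In EM-mGC it was 121.3, 126.8 and 144.9 CPM, so PBS stood above EM-mGC with TMM and on total counts but not with mitochondrial genes out. The cause was not tested. With a library left out, sums were 80.0 to 95.5 (Con-mGC), 116.4 to 131.3 (EM-mGC), 162.0 to 165.7 (PBS) and 148.4 to 154.1 CPM (EET).

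Signs of log2 fold changes near 0 turned with a library left out, none of them called. In EM-mGC against Con-mGC, H2bc4 ran from -0.095 to 0.15, H2bc6 from -0.096 to 0.31 and H3c15 from -0.19 to 0.38. In EET against PBS, H2bc21 ran from -0.13 to 0.053, H2bc23 from -0.19 to 0.24, H2bc8 from -0.20 to 0.12 and H2bc9 from -0.30 to 0.0056. H2bc23 was also -0.0029 with DESeq2 and -0.0043 with the block. In PBS against EM-mGC, H1f2 ran from -0.052 to 0.16.

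The replicate number as a block left the counts of calls at 0, 0 and 10. Same-numbered PBS and EET libraries had correlations of 0.0284, 0.0621 and -0.00677 in their deviations, and PBS-3 correlated best with EET-1, so whether equal numbers stand for the described pairs is not settled by these data. RLE scaling put the median of all genes in PBS against EM-mGC at -0.14 where TMM put it at -0.11, with 10 calls under each. The genes outside the filter, 42 to 52 of the 66 in each comparison, have few reads, and the part of depth in that was not tested.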
